A study of Mus musculus with 72 samples.

Results

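The adult cerebellum was compared with the adult forebrain on 16 of the 72 arrays of the study, those of postnatal day (P) 84, the oldest age sampled. The comparison took 6 arrays of cerebellum, 5 of cerebral cortex and 5 of hippocampus, and set the cerebellum mean against the average of the cortex mean and the hippocampus mean. Members were all arrays labelled P84, apart from the disomic replicate 3 of cortex and of hippocampus, which were dimmer than the rest (upper quartiles of 5.23 and 5.51 on the log2 scale against 5.71 to 5.88). Each region held 3 arrays of Ts1Cje mice, and the disomic arrays numbered 3 for cerebellum and 2 for each forebrain region. Ts1Cje mice carry an extra copy of a distal segment of mouse chromosome 16 through an unbalanced translocation, and their disomic littermates on the C57BL/6 background carry none. Both came from Ts1Cje males mated with C57BL/6 females, and according to the methods the regions were taken from the same 3 mice of each genotype. The label for sex was female throughout. On each of these 16 arrays, however, the inactive X transcript *Xist* had a lower value than *Eif2s3y* of the Y chromosome. The regions are whole dissected tissue, so a lower value can mean fewer cells of a type or less RNA per cell, and these cannot be told apart.

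Differences below are cerebellum minus forebrain on the log2 scale unless another contrast is named, so that a positive value is higher in cerebellum. Values are gcRMA expression values on the log2 scale, on which a difference of 1 is a doubling, and they are given by probe set, the group of oligonucleotides that reads a transcript. For a gene read by several probe sets, the brightest on average across the 72 arrays was taken. A probe set was called where its moderated t reached 4 in size with an adjusted p of at most 0.05 over the 45101 probe sets. The array medians lay between 3.23 and 3.28, and a group mean below its median was not shown to be above background. The size of a difference from such a group is therefore not known, whichever value is printed for it.

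The cerebellum and the forebrain are built from different neurons. Cerebellar granule cells are small glutamatergic neurons that outnumber all other neurons of the brain, Purkinje cells are the large GABAergic output neurons of the cerebellar cortex, and Bergmann glia are the radial astrocytes beside them. The cortex and hippocampus are led by glutamatergic pyramidal neurons, with GABAergic interneurons that express neuropeptides such as somatostatin, and the hippocampus also holds the dentate granule cells. Hindbrain and forebrain neurons are specified by different transcription factors, many of which stay expressed in the adult.

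Genes at both ends of the comparison are shown first by their upstream sequence, since the arrays read transcript levels and not the sequence that drives them. Of the 24 genes with the largest differences, 13 had an entry among the RefSeq start sites of GRCm38.p6, and the 250 bases before the most upstream start are printed 5′ to 3′ for 2 genes higher in cerebellum (*Pcp2* and *Gabra6*) and 2 lower (*Nrgn* and *Sst*). Capitals mark matches on either strand to AGGTCA, the core bound by nuclear receptors such as RORA, to CAGATG, an E-box of the kind bound by NEUROD factors, to GGGCGG, the GC box, and to TGACGTCA, the cyclic AMP response element. The stretches lie on the minus strand at chr8:3625548-3625797, chr11:42321073-42321322, chr9:37552746-37552995 and chr16:23890845-23891094.
Pcp2: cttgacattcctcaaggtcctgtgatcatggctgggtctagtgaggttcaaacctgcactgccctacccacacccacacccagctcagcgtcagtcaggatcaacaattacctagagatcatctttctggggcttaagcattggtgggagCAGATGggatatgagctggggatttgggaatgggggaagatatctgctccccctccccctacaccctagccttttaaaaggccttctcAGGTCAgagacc
Gabra6: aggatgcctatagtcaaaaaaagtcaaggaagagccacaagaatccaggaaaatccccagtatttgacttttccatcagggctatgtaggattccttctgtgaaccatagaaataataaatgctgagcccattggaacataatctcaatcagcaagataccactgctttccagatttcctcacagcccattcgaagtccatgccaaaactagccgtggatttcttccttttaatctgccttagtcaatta
Nrgn: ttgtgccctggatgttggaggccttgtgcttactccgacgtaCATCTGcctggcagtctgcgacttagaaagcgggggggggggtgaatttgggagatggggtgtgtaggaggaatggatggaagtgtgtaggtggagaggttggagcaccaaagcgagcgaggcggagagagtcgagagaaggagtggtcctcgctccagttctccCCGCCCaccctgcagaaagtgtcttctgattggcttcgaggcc
Sst: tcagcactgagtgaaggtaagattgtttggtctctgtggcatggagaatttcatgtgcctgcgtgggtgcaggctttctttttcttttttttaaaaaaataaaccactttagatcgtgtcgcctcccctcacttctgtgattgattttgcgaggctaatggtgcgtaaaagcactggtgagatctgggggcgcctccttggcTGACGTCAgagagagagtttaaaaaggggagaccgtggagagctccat
The *Pcp2* stretch held AGGTCA at positions -12 to -7 and CAGATG at -100 to -95, counted back from the start. *Nrgn* held CAGATG at -208 to -203 and GGGCGG at -43 to -38, both on the opposite strand, and *Sst* held TGACGTCA at -48 to -41. *Gabra6* held none of these letters, and neither TAATTA nor TATAAA was found in any of the 13 genes. Over the most upstream starts of 27025 genes, AGGTCA stood in 13.8% of stretches of this length, CAGATG in 14.5%, GGGCGG in 33% and TGACGTCA in 1.6%, with TAATTA in 4.91% and TATAAA in 13%. The motifs do not overlap one another in these 4 stretches, and a match describes the letters only.

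The regional difference was broad. Against the forebrain mean, 10415 of 45101 probe sets were called (23.1%), 5193 higher in cerebellum (11.5%) and 5222 lower (11.6%). Against cortex alone 9062 were called (20.1%, with 9.66% higher and 10.4% lower) and against hippocampus alone 8979 (19.9%, with 9.92% higher and 9.98% lower). In the same direction against both, 6673 were called (14.8%, with 7.51% higher and 7.29% lower). This was 64.1% of those called against the forebrain mean. The comparisons share the 6 cerebellum arrays, and only 48 probe sets were called in opposite directions against cortex and hippocampus. With 1 probe set per gene, 2318 of 18194 genes were called higher in cerebellum (12.7%) and 2893 lower (15.9%), and 1574 (8.65%) and 1906 (10.5%) were called so against both regions. In either direction this was 28.6% of genes against the forebrain mean and 19.1% against both. The shares of 12.7% higher and 15.9% lower are those to set beside each count of list members below. All 6 cerebellum arrays lay above all 10 forebrain arrays for 1477 genes (8.12%) and below them for 1868 (10.3%). Arrays of the same region correlated at 0.972 to 0.995 over probe sets, a cortex and a hippocampus array at 0.966 to 0.984 and a cerebellum and a forebrain array at 0.921 to 0.945.

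The 12 genes with the largest positive difference among those called against both regions were led by *Pcp2*, which encodes a Purkinje cell protein that acts on G proteins. Its cerebellum values had a lowest, median and highest of 13.81, 14.03 and 14.16. The cortex read 3.30, 3.26, 3.24, 3.12 and 3.14, given here and below in the order of disomic replicates 1 and 2 and Ts1Cje replicates 1 to 3. The hippocampus read 4.09, 5.99, 3.01, 3.26 and 5.67. The groups did not overlap, and the hippocampus was uneven, with disomic replicate 2 and Ts1Cje replicate 3 the highest. The log2 difference was 10.18 (SE 0.36, adjusted p = 1.59e-12).

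*Gabra6*, the GABA-A receptor subunit of cerebellar granule cells, showed the same layout. The cerebellum values were 12.04, 12.54 and 12.66 (lowest, median and highest). The cortex read 2.23, 1.86, 1.86, 1.94 and 2.05 and the hippocampus 2.82, 4.77, 1.86, 1.95 and 4.55. All cortex values were near the floor, and the same pair of hippocampus arrays stood above the other hippocampus arrays. The log2 difference was 9.81 (SE 0.36, adjusted p = 3.21e-12). Of the 15 granule cell genes and 18 Purkinje cell genes called higher in cerebellum, 5 and 9 had their highest hippocampus value on disomic replicate 2, and 6 and 5 on Ts1Cje replicate 3. With both arrays left out, a setting chosen after the values were seen, 10501 probe sets were called against the forebrain mean. Whether these 2 dissections held some cerebellar tissue was not tested.

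*Cbln3* and *Cbln1* encode cerebellins, proteins that granule cells secrete at their synapses with Purkinje cells. *Cbln3* read 11.92, 12.02 and 12.76 in cerebellum (lowest, median and highest), 2.17, 2.22, 2.14, 2.19 and 2.45 in cortex and 2.63, 3.76, 2.21, 2.52 and 3.43 in hippocampus. No forebrain array came near the cerebellum, and the log2 difference was 9.59 (SE 0.20, adjusted p = 2.94e-15). *Cbln1* differed by 8.60 (SE 0.28, adjusted p = 7.47e-13), with a cerebellum mean of 12.12 ± 0.16 (SD, n = 6). The other 8 genes were *Cnpy1* (8.61), a modulator of fibroblast growth factor signalling, *Crtam* (7.50), an immunoglobulin-like adhesion molecule, *Ppp1r17* (7.22), a Purkinje cell substrate of cGMP-dependent protein kinase, *En2* (7.18), the engrailed homeobox factor of the midbrain and hindbrain, *Fat2* (7.14), a protocadherin of granule cells, *Car8* (7.06), a carbonic anhydrase-related protein of Purkinje cells, *Patj* (7.0, 2 of 4 probe sets called), a polarity scaffold, and *Nrk* (6.88), a kinase. Their adjusted p ran from 1.09e-17 (*Crtam*) to 7.56e-10 (*Car8*). Within cerebellum the SD of the 12 genes was 0.0794 to 0.374, and in hippocampus it reached 1.54. In 8 of the 12 both forebrain means were below the array median, so the size of these differences is not known.

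**Figure D1:**
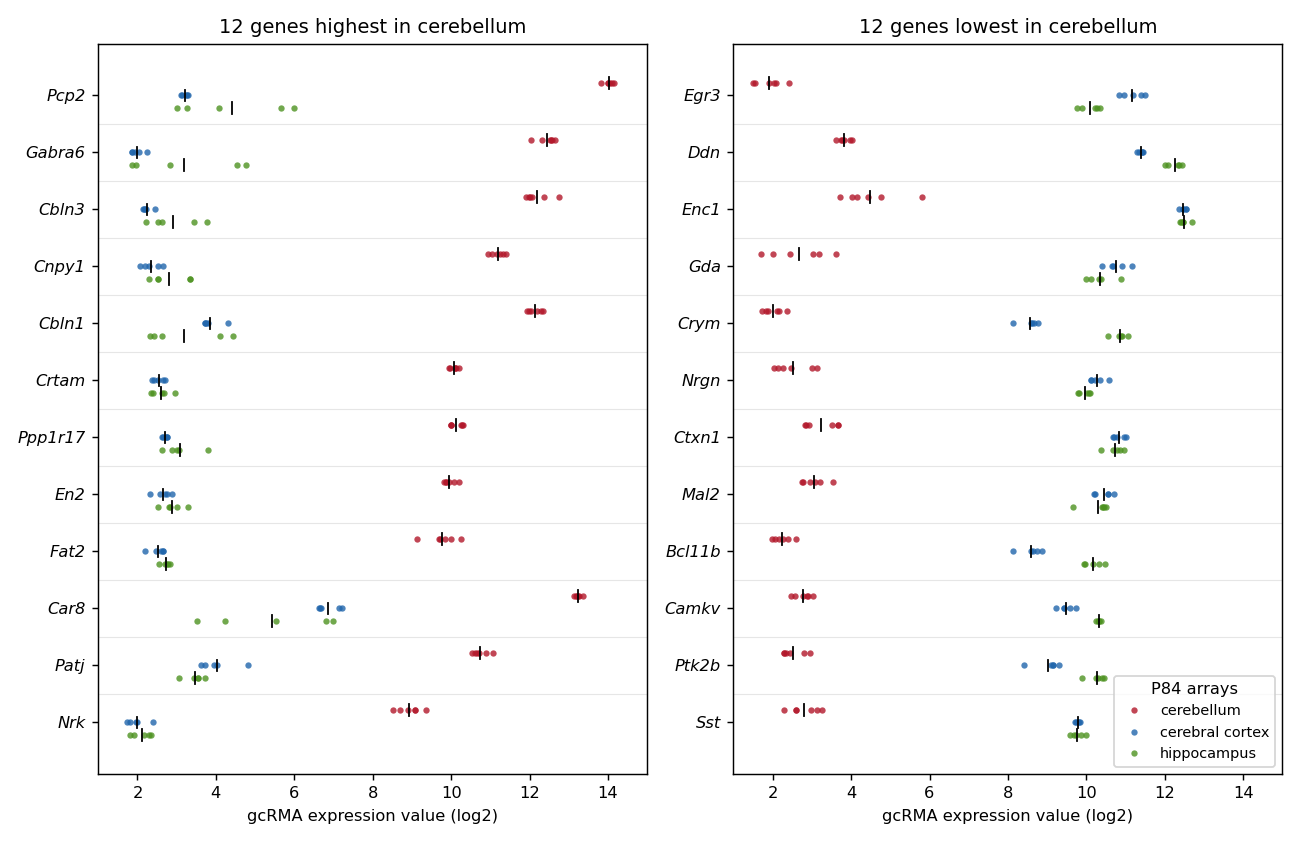
Expression values (gcRMA, log2) on each of the 16 P84 arrays for the 12 genes highest and the 12 genes lowest in cerebellum against forebrain; points are arrays, short vertical lines are region means (6 cerebellum, 5 cerebral cortex and 5 hippocampus arrays). Cerebellum did not overlap with either forebrain region for any of the 24 genes, which follows from their choice by the size of this difference. *Pcp2*, *Gabra6* and *Car8* spread most in hippocampus.

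At the other end stood *Egr3*, an activity-regulated zinc finger transcription factor. Its cerebellum values were 1.49, 1.98 and 2.41 (lowest, median and highest). The cortex read 11.49, 11.18, 11.39, 10.97 and 10.82 and the hippocampus 10.34, 9.90, 10.27, 10.21 and 9.76. Every forebrain array lay above every cerebellum array, with the cortex above the hippocampus, and the log2 difference was -8.71 (SE 0.15, adjusted p = 2.58e-16) on the 1 of its 2 probe sets that was called. *Nrgn*, encoding neurogranin, the postsynaptic calmodulin-binding protein of forebrain neurons, read 2.03, 2.36 and 3.14 in cerebellum (lowest, median and highest), 10.13, 10.58, 10.23, 10.34 and 10.12 in cortex and 9.81, 10.06, 9.79, 10.01 and 10.10 in hippocampus. The hippocampus arrays lay just below the cortex arrays and all of them far above the cerebellum, and the log2 difference was -7.59 (SE 0.15, adjusted p = 1.41e-15). *Sst*, encoding the neuropeptide somatostatin, read 2.29, 2.79 and 3.25 in cerebellum, 9.80, 9.83, 9.79, 9.72 and 9.74 in cortex and 9.73, 9.58, 9.69, 9.85 and 10 in hippocampus. Its forebrain values were even, and the log2 difference was -6.97 (SE 0.13, adjusted p = 5.52e-16).

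The remaining 9 lowest genes were *Ddn* (-8.00), encoding the postsynaptic protein dendrin, *Enc1* (-7.97), a BTB-kelch protein, *Gda* (-7.86), guanine deaminase, *Crym* (-7.68), a thyroid hormone-binding protein, *Ctxn1* (-7.52), cortexin, *Mal2* (-7.31), a membrane transport protein, *Bcl11b* (-7.15), the transcription factor of subcerebral projection neurons, *Camkv* (-7.13), a kinase-like synaptic protein, and *Ptk2b* (-7.12), a calcium-regulated tyrosine kinase. *Ddn* had an adjusted p of 1.78e-18 and *Enc1* of 7.68e-14. *Bcl11b*, *Crym*, *Camkv*, *Ptk2b* and *Ddn* were higher in hippocampus than in cortex by their means, as with 10.17 ± 0.23 and 8.59 ± 0.28 (SD, n = 5) for *Bcl11b*, a difference that was not tested here. In 10 of the 12 the cerebellum mean was below the array median. The 24 genes had 48 probe sets in all, of which 45 were called in the direction of the gene and none in the other.

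Genes of the neurons that define the cerebellum were higher there almost throughout. Of 16 measured granule cell genes, 15 were called higher in cerebellum and the list median was 4.78, and of 19 Purkinje cell genes 18 were called higher, with a median of 4.11. Over all 18194 genes 12.7% were called higher and the median difference was 0.0109. All 33 of these calls held against both cortex and hippocampus. Among the granule cell genes, *Zic1*, a zinc finger factor of the granule lineage, was 47.2-fold higher with all groups well above the array median (13.24 ± 0.13 in cerebellum, 7.76 ± 0.37 in cortex and 7.50 ± 0.82 in hippocampus, SD). *Calb2*, encoding the calcium buffer calretinin, differed by 6.19 (SE 0.14, adjusted p = 5.01e-15), *Neurod1*, a basic helix-loop-helix factor of granule cells, by 4.56, *Pax6*, a paired homeobox factor, by 4.69 and *Reln*, the secreted protein reelin, by 2.80. *Barhl1*, a homeobox factor, had the smallest called difference (0.83) at a cerebellum mean of 3.06. The gene that stood against the list was *Slc17a7*, encoding the vesicular glutamate transporter VGLUT1, which forebrain glutamatergic neurons also use. Its difference was -0.94 (SE 0.27, adjusted p = 0.0131), short of the t threshold, and it was called lower without hippocampus disomic replicate 2 (-1.07) and with array weights (adjusted p = 0.00287).

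Among the Purkinje cell genes, *Slc1a6*, encoding the glutamate transporter EAAT4, differed by 6.32 (SE 0.12, adjusted p = 9.15e-16) and *Lhx1*, a LIM homeobox factor, by 6.26. *Inpp5a*, an inositol phosphatase, differed by 4.82 and *Rgs8*, a regulator of G protein signalling, by 4.57. Genes with forebrain expression of their own differed less. *Rora*, the nuclear receptor mutated in staggerer mice, differed by 2.85, with more in cortex (8.81 ± 0.06, SD) than in hippocampus (6.76 ± 0.45). *Calb1*, encoding the calcium buffer calbindin, differed by 2.59 and *Aldoc*, the glycolytic enzyme zebrin II that astrocytes also express, by 0.98, with its other probe set called the other way. *Pvalb*, encoding parvalbumin and shared with interneurons, was 18.4-fold higher (4.20, SE 0.21, adjusted p = 1.51e-10). *Foxp2*, a forkhead factor of Purkinje cells and of deep cortical layers, was not called (0.09, SE 0.14, adjusted p = 0.686). Its cerebellum mean of 4.31 lay between the 5.61 of cortex and the 2.79 of hippocampus.

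The Bergmann glia list was called higher in 8 of its 8 genes, 6 of them against both regions, with a median of 1.79. *Gdf10*, a bone morphogenetic protein family member, differed by 5.44 (SE 0.13, adjusted p = 2.1e-14) and *Dao*, D-amino acid oxidase, which degrades D-serine, by 5.27 (SE 0.14, adjusted p = 6.71e-14). *Vim*, encoding vimentin, and *Hopx* differed by 1.92 and 1.67. *Slc1a3*, the glutamate transporter GLAST, differed by 1.16 and *Fabp7*, a fatty acid-binding protein, by 0.51. On the probe sets used, neither was called against both regions. Other *Slc1a3* probe sets were called higher against both (0.98 and 1.05, adjusted p = 1.13e-06 and 6.18e-07), and the rest were not called. The list of other cerebellar neurons was mixed, with 5 of 9 genes called higher and 3 lower. *Tfap2b* (3.40), a factor of GABAergic precursors, *Prkcd* (2.66), a protein kinase C, *Kit* (2.25), the receptor tyrosine kinase of molecular layer interneurons, and *Eomes* (1.91), the T-box factor of unipolar brush cells, were higher. *Grm2* (-1.23), the glutamate receptor of Golgi cells, *Sorcs3* (-1.79) and *Nxph1* (-1.89) were lower, and all 3 are also used by forebrain neurons.

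**Figure D2:**
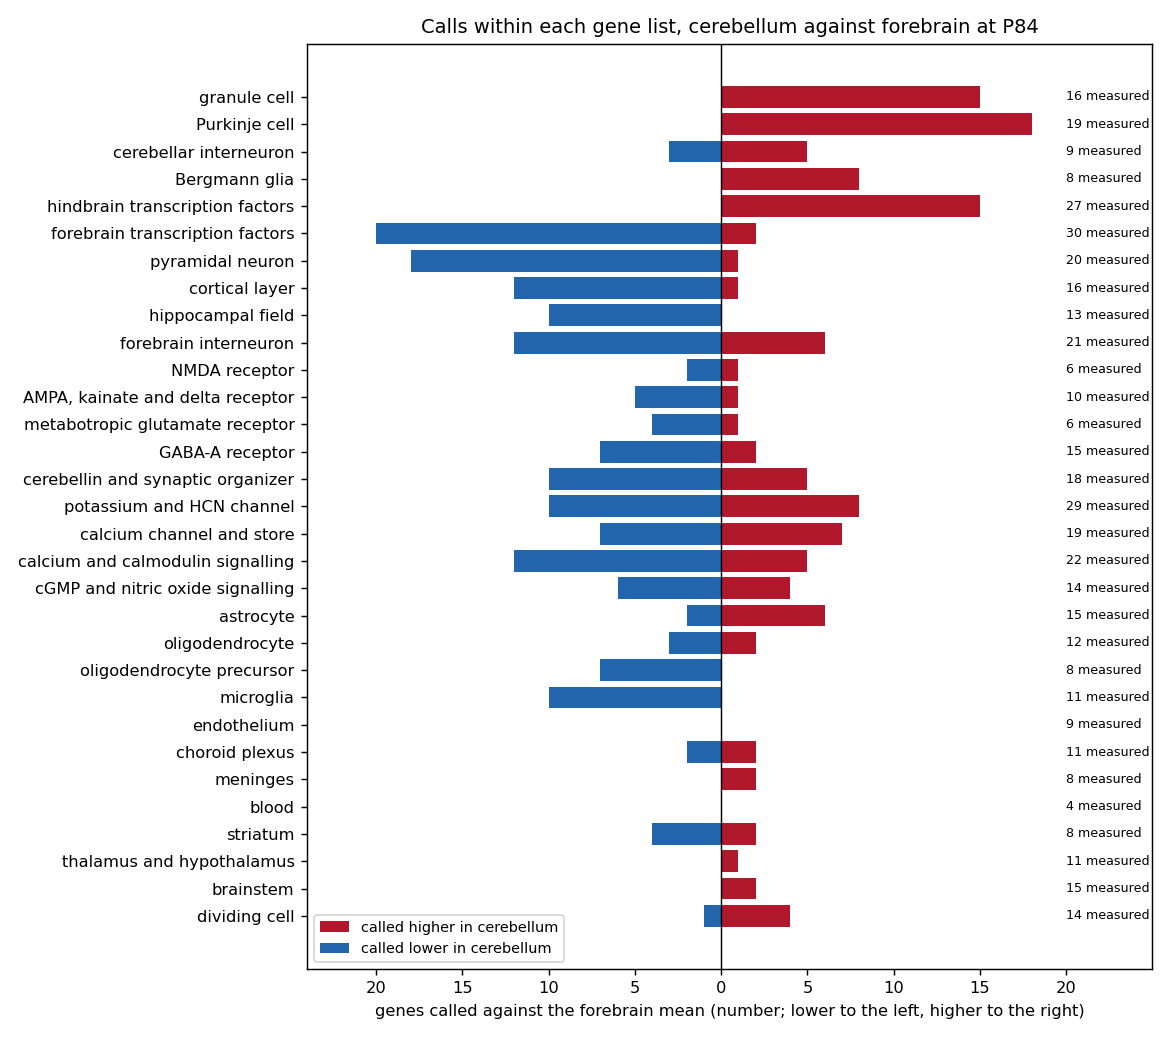
Number of genes in each list that were called higher (right) or lower (left) in cerebellum against the forebrain mean at P84, with the number of measured genes at the right edge. Granule cell, Purkinje cell and Bergmann glia lists had calls on the higher side only, oligodendrocyte precursor and microglia lists on the lower side only, and the endothelium and blood lists had no call.

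Transcription factors separated hindbrain from forebrain. Of 27 measured hindbrain factors 15 were called higher in cerebellum and none lower, and the other 12 had differences between -0.07 (*Lmx1b*) and 0.40 (*En1*). The group of zinc finger factors on the list, *Zic1* (5.56), *Zic5* (5.08), *Zic2* (4.05) and *Zic4* (2.34), was higher throughout. The Iroquois factors *Irx3* (1.69) and *Irx5* (0.89) were higher at low levels, with cerebellum means of 3.99 and 2.91, the second of them below the array median. *Barhl2* differed by 3.04 (SE 0.28, adjusted p = 2.69e-07). In 16 of the 27 genes all 3 region means were below the array median, so the levels of those factors are not known.

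Of 30 forebrain factors 20 were called lower in cerebellum, 18 of them against both regions, and the list median was -1.51. *Lhx2*, the LIM homeobox factor of the cortical primordium, read 2.09, 2.47 and 2.68 in cerebellum (lowest, median and highest), 9.24, 9.14, 8.94, 8.90 and 9.0 in cortex and 9.21, 9.12, 8.97, 9.19 and 9.23 in hippocampus. Cortex and hippocampus lay at one level and the cerebellum at the floor, and the log2 difference was -6.66 (SE 0.08, adjusted p = 1.09e-17). *Neurod6* (-6.49), a factor of pyramidal neurons, *Tbr1* (-4.85) and *Fezf2* (-4.61), factors of deep-layer projection neurons, *Mef2c* (-3.34) and *Emx2* (-2.78) were also lower. *Mef2c* had a cerebellum mean of 7.99 against 12.49 in cortex and 10.16 in hippocampus. *Emx1* differed by -0.92 with a cortex mean of 3.77. The genes against the list were *Cux1* and *Neurod2*. *Cux1*, a homeobox factor of upper cortical layers, was higher in cerebellum by 1.84 against the forebrain mean. On this probe set it was higher by 0.85 (SE 0.22, adjusted p = 0.00637) against cortex and by 2.83 (SE 0.22, adjusted p = 3.23e-08) against hippocampus. The first of these pairwise differences was not called. Other *Cux1* probe sets were called higher against both regions (1.88, 1.76 and 1.33 against the forebrain mean), and the rest were not called against both. *Neurod2* was higher by 0.56 (SE 0.11, adjusted p = 0.000543) against the forebrain mean, through cortex (1.07) rather than hippocampus (0.04).

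The forebrain neuron lists were lower together. Of 20 pyramidal neuron genes 18 were called lower (median -4.40), of 16 cortical layer genes 12 (median -2.84) and of 13 hippocampal field genes 10 (median -2.51), where 15.9% of all genes were called lower. *Camk2a*, the alpha subunit of calcium/calmodulin-dependent kinase II, differed by -5.62 (SE 0.15, adjusted p = 7.1e-14), *Icam5*, the adhesion molecule telencephalin, by -6.57 (SE 0.10, adjusted p = 7.38e-17), *Lamp5*, a membrane protein of forebrain neurons, by -6.43 and *Hpca*, encoding the calcium sensor hippocalcin, by -5.25. *Itpka*, an inositol kinase of dendritic spines, differed by -1.93 and remained well expressed in cerebellum (8.12 ± 0.41, SD, n = 6). The activity-regulated *Egr1* differed by -2.65. *Ppp3ca*, a catalytic subunit of calcineurin, differed by -0.59 (SE 0.14, adjusted p = 0.00263). The call on this probe set was lost without cerebellum disomic replicate 1, any 1 of the 3 Ts1Cje cerebellum arrays, cortex disomic replicate 2 or hippocampus disomic replicate 1 (-0.60 to -0.51). The other probe sets of *Ppp3ca* were called lower against both regions (-1.06 and -1.03, adjusted p = 1.5e-06 and 2.95e-08). *Nptx1*, a neuronal pentraxin, was the 1 gene called higher in cerebellum (0.52, SE 0.12, adjusted p = 0.00308). Its call was lost without cerebellum disomic replicate 1 or 2, cerebellum Ts1Cje replicate 1 or 2, cortex Ts1Cje replicate 2 or hippocampus Ts1Cje replicate 3 (0.46 to 0.53).

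For several hippocampal field genes the forebrain average hid a difference between its regions. *Dsp* (desmoplakin) and *C1ql2* (a C1q family protein), both of the dentate gyrus, had cortex means near those of cerebellum. *Dsp* read 2.27 ± 0.22 in cerebellum, 2.31 ± 0.11 in cortex and 8.54 ± 0.47 in hippocampus (SD, n = 6, 5 and 5), and *C1ql2* read 2.43 ± 0.11, 2.33 ± 0.16 and 8.06 ± 0.30. *Dsp* differed by -0.08 (SE 0.14, adjusted p = 0.743) against cortex and by -6.31 (SE 0.14, adjusted p = 1.05e-14) against hippocampus. *Lct* and *Spink8* had the same layout, with differences from hippocampus of -5.31 and -4.91, and neither was called against cortex. *Fibcd1*, an endocytic receptor, was lower than in both, with differences of -0.60 from cortex and -5.70 from hippocampus. *Dkk3*, a Dickkopf family member, was lower against both to a similar extent (-5.16 and -5.44). In the cortical layer list *Cux2*, a partner of *Cux1* in upper layers, read 8.64 ± 0.43 in cortex, 6.15 ± 0.62 in cerebellum and 5.67 ± 0.81 in hippocampus (SD), and its difference from the forebrain mean of -1.0 was not called (adjusted p = 0.0183). It was called without cerebellum Ts1Cje replicate 3 (-1.26), with all ages in the fit (adjusted p = 0.00082) and with array weights (adjusted p = 0.00425).

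Of 21 measured interneuron genes 12 were called lower and 6 higher. After *Sst*, *Vip* (vasoactive intestinal peptide) differed by -5.56 (SE 0.11, adjusted p = 1.83e-15), *Crh* (corticotropin-releasing hormone) by -4.12 and *Npy* (neuropeptide Y) by -2.94. *Gad1*, encoding glutamate decarboxylase 67, was higher by 0.70 (SE 0.07, adjusted p = 1.33e-06), *Slc32a1*, encoding the vesicular GABA transporter, by 1.66 (SE 0.20, adjusted p = 4.44e-06) on 1 of its 4 probe sets, the others not called, and *Gad2*, encoding glutamate decarboxylase 65, was not called (0.08, SE 0.08, adjusted p = 0.481). *Penk*, also a peptide gene and encoding the opioid precursor proenkephalin, was higher by 1.81. The other higher members were *Calb2*, *Pvalb* and *Reln*, which the cerebellar lists hold as well.

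Glutamate receptors showed which subunits each tissue uses. Among 6 NMDA receptor genes measured, *Grin2c*, the GluN2C subunit, read 9.65, 10.08 and 10.27 in cerebellum (lowest, median and highest), 4.93, 5.33, 4.51, 4.72 and 4.80 in cortex and 5.15, 5.85, 4.57, 4.41 and 5.05 in hippocampus. The log2 difference was 5.04 (SE 0.16, adjusted p = 3.53e-13), a 32.9-fold difference with all groups above the array median. *Grin2b*, the GluN2B subunit, ran the other way, with 2.54, 3.08 and 3.70 in cerebellum, 8.94, 8.09, 8.74, 8.44 and 8.72 in cortex and 9.66, 9.58, 9.50, 8.71 and 8.68 in hippocampus. The log2 difference was -5.86 (SE 0.21, adjusted p = 2.55e-12). *Grin3a* was lower (-1.10), and *Grin2a*, the GluN2A subunit, had means near or below the array median on the 1 probe set it has (2.32, 2.72 and 3.31) and was not called (-0.69, adjusted p = 0.0254), though it was with all ages in the fit (adjusted p = 0.000574). Of the 10 AMPA, kainate and delta receptor genes, *Gria4* alone was called higher (3.02, SE 0.15, adjusted p = 9.76e-11). Another 5 were called lower, where 12.7% of all genes were called higher and 15.9% lower. The lower genes included *Gria2* (-1.24), whose subunit limits calcium entry through AMPA receptors, *Gria3* (-1.39), *Grik5* (-2.16) and *Grid1* (-1.98). *Gria1* was higher than cortex (0.55, SE 0.13, adjusted p = 0.00363) and lower than hippocampus (-1.20, SE 0.13, adjusted p = 1.98e-06), so that its difference from the forebrain mean was -0.33 and was not called. Its other probe set was called lower (-0.91, adjusted p = 3.67e-07).

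Of 6 metabotropic receptor genes 1 was called higher and 4 lower, against 12.7% and 15.9% of all genes. *Grm4*, the mGlu4 receptor of parallel fibre terminals, was higher in cerebellum by 5.12 (SE 0.09, adjusted p = 3.28e-16), with forebrain means of 3.34 and 3.01 near the array median. *Grm5*, the mGlu5 receptor of forebrain neurons, read 3.06, 3.47 and 3.82 in cerebellum (lowest, median and highest), 10.08, 10.11, 10.09, 9.94 and 9.63 in cortex and 10.65, 10.28, 10.65, 10.76 and 10.55 in hippocampus. Its log2 difference was -6.80 (SE 0.11, adjusted p = 1.45e-16). *Grm7* (-2.81) and *Grm3* (-1.95) were also called lower, the second of them not against hippocampus (-1.37).

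The GABA-A receptor genes divided by subunit as well. Beside *Gabra6*, the delta subunit *Gabrd*, which assembles with it in extrasynaptic receptors of granule cells, was called higher, by 2.12 (SE 0.20, adjusted p = 4.56e-07) against cortex and 4.31 (SE 0.20, adjusted p = 8.11e-11) against hippocampus. *Gabra5*, the alpha5 subunit of hippocampal and cortical pyramidal neurons, read 2.52, 2.71 and 3.13 in cerebellum (lowest, median and highest), 8.45, 8.44, 8.38, 8.39 and 8.74 in cortex and 10.43, 9.97, 10.38, 10.55 and 10.44 in hippocampus. The 3 regions did not overlap, and the log2 difference was -6.61 (SE 0.09, adjusted p = 4.12e-17). *Gabra3* (-3.34), *Gabra2* (-2.99), *Gabra4* (-2.88), *Gabrb1* (-2.33) and *Gabrg3* (-2.05) were lower too. In all 2 of the 15 measured genes were called higher and 7 lower, against 12.7% and 15.9% of all genes. The number called higher was thus close to that share. *Gabrb2*, a beta subunit with high values everywhere (10.70, 10.58 and 10.01), was not called against the forebrain mean (0.40, SE 0.12, adjusted p = 0.0122). It was called without hippocampus Ts1Cje replicate 1 or cerebellum Ts1Cje replicate 2 (0.45 and 0.47) and after quantile normalization (adjusted p = 0.00316).

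**Figure D3:**
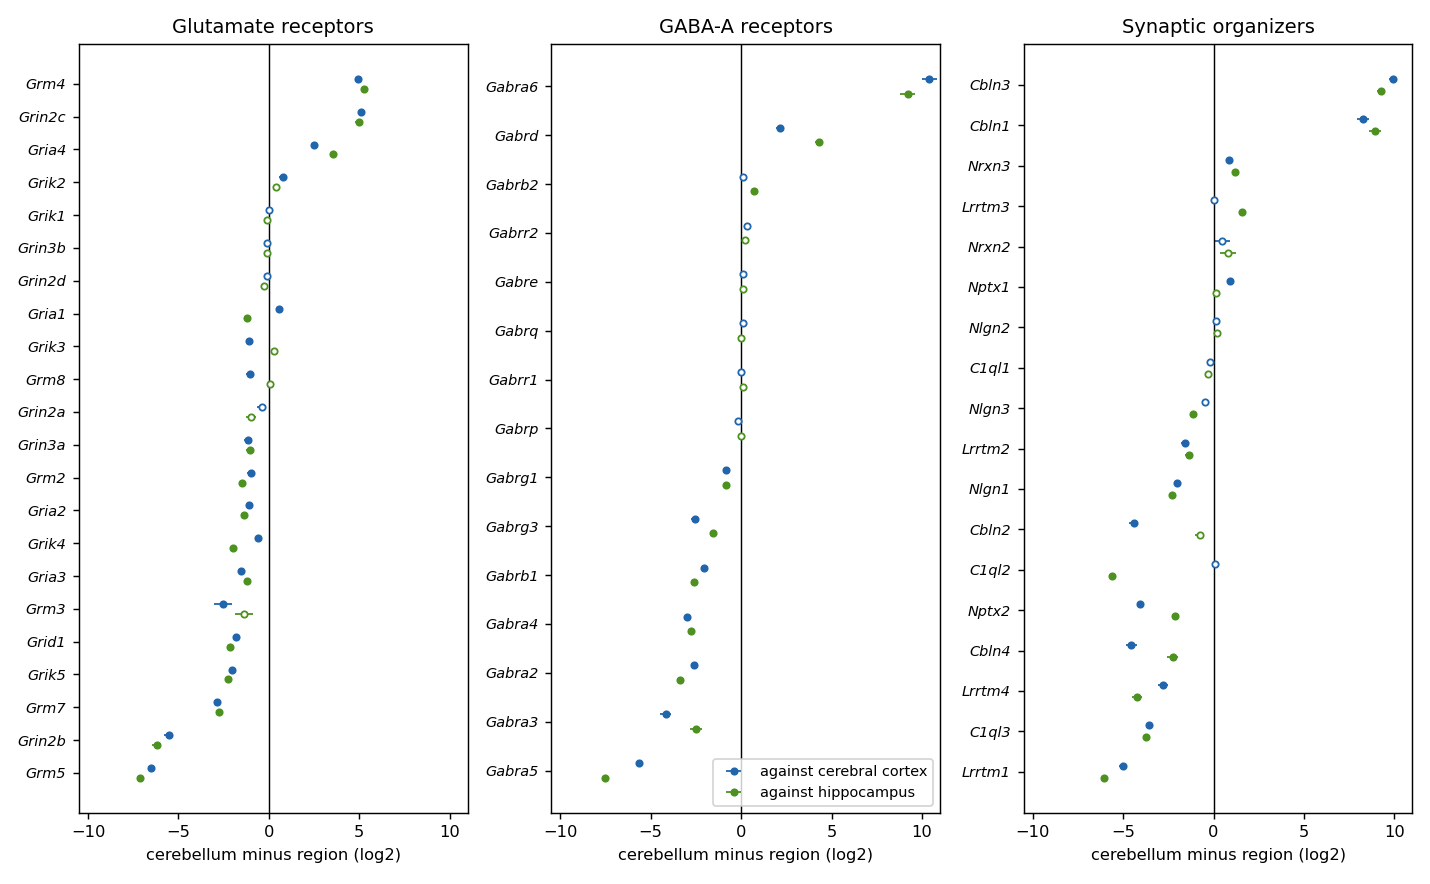
Log2 difference of cerebellum minus cerebral cortex (blue) and cerebellum minus hippocampus (green) for glutamate receptor, GABA-A receptor and synaptic organizer genes at P84; bars are standard errors of the fit, and open points were not called. *Gabra6*, *Cbln1*, *Cbln3*, *Grin2c* and *Grm4* lay to the right against both regions, and *Grin2b*, *Grm5*, *Gabra5* and *Lrrtm1* to the left.

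Synaptic organizers of the cerebellin family differed in both directions. *Cbln1* and *Cbln3* were the highest of the 18 measured organizer genes and *Cbln4* (-3.41, SE 0.26, adjusted p = 2.35e-08) and *Cbln2* (-2.58, SE 0.21, adjusted p = 6.31e-08) were lower in cerebellum. *Cbln2* was a cortical gene on these arrays, with 6.95 ± 0.72 in cortex, 3.29 ± 0.25 in hippocampus and 2.56 ± 0.27 in cerebellum (SD), and it was not called against hippocampus (-0.75, adjusted p = 0.0307). *C1ql3* (-3.65) and the leucine-rich organizer *Lrrtm1* (-5.52, SE 0.18, adjusted p = 5.65e-13) were lower. *Nrxn3*, a presynaptic neurexin, was higher by 1.02 (SE 0.13, adjusted p = 1.52e-05) on the probe set used, while 1 of its 5 probe sets was called lower. Of the 18 genes 5 were called higher and 10 lower, against 12.7% and 15.9% of all genes.

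Potassium channels differed by subunit. Of 29 potassium and HCN channel genes 8 were called higher and 10 lower, against 12.7% and 15.9% of all genes. *Kcnc1*, the Kv3.1 channel of fast-spiking neurons, was higher by 2.57 (SE 0.14, adjusted p = 4.07e-10) and its relative *Kcnc2*, the Kv3.2 channel, was lower (-6.05, SE 0.18, adjusted p = 1.88e-13). *Kcnc2* read 2.72 to 3.37 on the cerebellum arrays against 8.69 to 9.52 in cortex and 8.16 to 9.30 in hippocampus. *Kcnd2*, the A-type channel Kv4.2, was higher by 1.40 and *Kcna1* by 0.90. The M-channel subunits *Kcnq5* (-6.08) and *Kcnq3* (-3.51), the Kv4 partner *Kcnip2* (-5.89) and *Kcna4* (-2.97) were lower.

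Calcium channels and stores were mixed in the same way, with 7 of 19 genes called higher and 7 lower. Of all genes 12.7% were called higher and 15.9% lower. *Atp2a3*, the SERCA3 calcium pump of Purkinje cells, was higher by 4.50 (SE 0.18, adjusted p = 8.96e-12). *Cacna1g*, the T-type channel Cav3.1, was higher by 2.73 and *Cacna1a*, the P/Q-type channel, by 1.79. *Cacna1h*, the T-type channel Cav3.2, was lower (-4.16, SE 0.16, adjusted p = 6.92e-12), with differences of -2.71 from cortex and -5.60 from hippocampus. The ryanodine receptors divided, *Ryr1* higher by 1.83 and *Ryr3* lower (-2.62).

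Among 22 calcium and calmodulin signalling genes 5 were called higher and 12 lower, against 12.7% and 15.9% of all genes. The visinin-like sensor *Hpcal1* was higher by 3.21 (SE 0.11, adjusted p = 1.22e-12) and its relative *Hpcal4* lower (-5.58, SE 0.16, adjusted p = 1.51e-13). *Camk4*, the nuclear kinase of granule cells, was higher by 2.17, and *Camk2d* by 1.74, while *Camk2a*, above, was lower. Cyclic GMP signalling, which acts in Purkinje cell plasticity, had 4 of 14 genes called higher and 6 lower. The phosphodiesterases *Pde1c* (5.18, SE 0.13, adjusted p = 3.59e-14), *Pde5a* (3.99, SE 0.15, adjusted p = 2.82e-12) and *Pde9a* (2.23) and the kinase *Prkg1* (1.43) were higher. *Pde1a* (-6.25, SE 0.12, adjusted p = 1.12e-15), *Pde2a* (-4.71), the kinase *Prkg2* (-2.53) and the soluble guanylate cyclase subunit *Gucy1b1* (-0.96) were lower.

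Glial genes differed by cell type. Of 11 measured microglia genes 10 were called lower in cerebellum (median -1.87) and none higher, and 9 of the 10 calls held against both regions. *P2ry12*, the purinergic receptor of resting microglia, read 2.94, 3.15 and 3.25 in cerebellum (lowest, median and highest), 6.00, 5.54, 5.93, 5.05 and 5.26 in cortex and 6.2, 4.42, 6.55, 6.40 and 6.57 in hippocampus. All cerebellum values lay below all forebrain values, with a cerebellum mean below the array median, and the log2 difference was -2.64 (SE 0.26, adjusted p = 5.71e-07). *Csf1r*, the receptor for colony-stimulating factor 1, was above the median in each region (5.83 ± 0.54, 8.08 ± 0.25 and 8.01 ± 0.31 in cerebellum, cortex and hippocampus, SD) and differed by -2.19 (SE 0.19, adjusted p = 1.44e-07), a 4.57-fold difference. The complement gene *C1qc* differed by -2.40 and the fractalkine receptor *Cx3cr1* by -1.87. *Trem2* was not called on the probe set used (0.15, SE 0.09, adjusted p = 0.249), while its other probe set was called lower against both regions (-0.43, adjusted p = 0.00091).

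Oligodendrocyte precursors gave the same direction, with 7 of 8 genes called lower (median -0.972). *Pdgfra*, the platelet-derived growth factor receptor that marks these cells, differed by -2.49 (SE 0.13, adjusted p = 2.45e-10) on the probe set used, the 1 of its 3 that was called. *Tnr*, the matrix protein tenascin-R, differed by -2.21 and the lineage factors *Olig2* and *Olig1* by -1.09 and -0.79. Mature oligodendrocyte genes were close in the 3 regions, with 2 of 12 called higher, 3 lower and a median of 0.03. Over all genes 12.7% were called higher and 15.9% lower. *Mbp*, encoding myelin basic protein, differed by 0.22 (SE 0.05, adjusted p = 0.00185), with 1 other probe set of its 8 called the other way. The *Mbp* call was lost with quantile normalization (adjusted p = 0.132), with all ages in the fit (adjusted p = 0.759), in each genotype alone and with the filter on low values. *Opalin* and *Mal* were lower (-1.50 and -0.79). Of 15 astrocyte genes 6 were called higher and 2 lower (median 0.375). *S100b*, a calcium-binding protein, differed by 2.10 (SE 0.11, adjusted p = 3.41e-10) and *Aqp4*, the aquaporin of astrocyte endfeet, by 1.38. *Mfge8* (-1.73) and the glutamate transporter *Slc1a2* (-1.16) were lower, the second of these the reverse of *Slc1a3*. *Gfap* was not called on the probe set used (-0.45, adjusted p = 0.0582). Its other probe sets were called lower against the forebrain mean, though not against both regions (-0.66 and -1.31, adjusted p = 0.00442 and 0.000427).

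**Figure D4:**
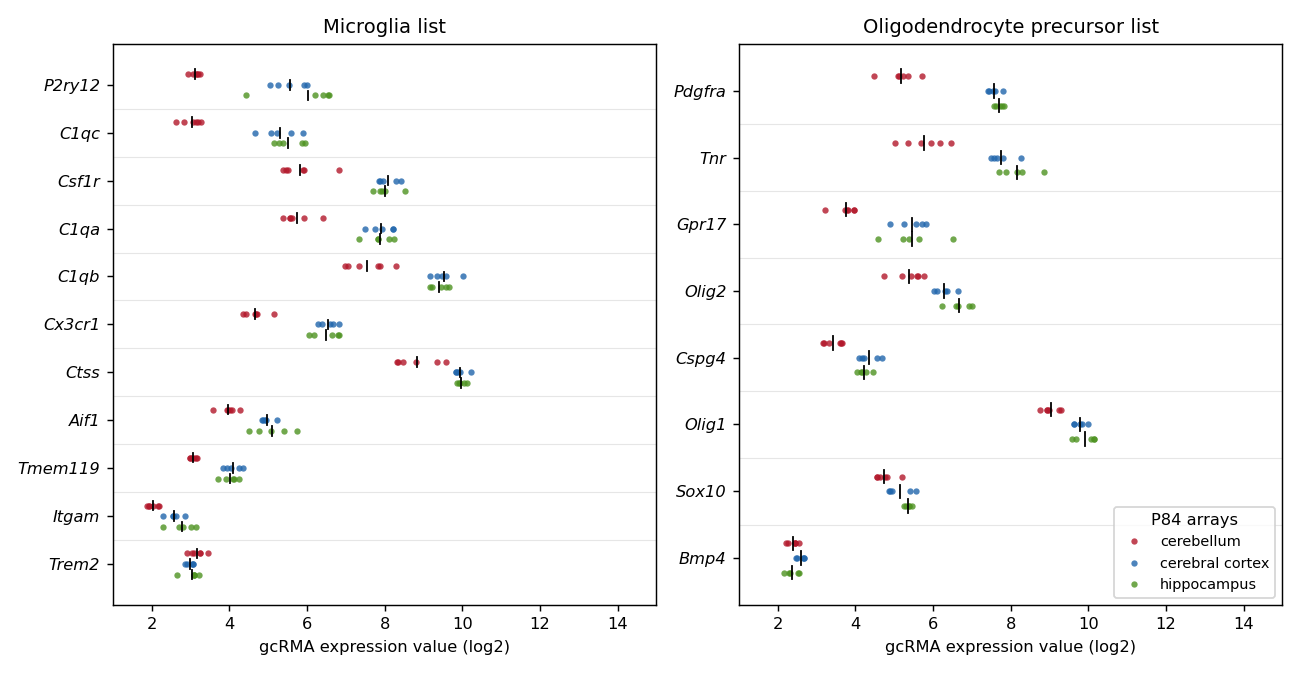
Expression values (gcRMA, log2) on each of the 16 P84 arrays for the measured genes of the microglia list and the oligodendrocyte precursor list; points are arrays and short vertical lines are region means (6 cerebellum, 5 cerebral cortex and 5 hippocampus arrays). Cerebellum lay below all forebrain arrays for 10 of 11 microglia genes and 6 of 8 precursor genes, against 10.3% of all genes. Cortex and hippocampus overlapped for all 19.

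Markers of neighbouring tissue were counted to describe the dissections. None of 9 endothelium genes and none of 4 blood genes was called in either direction, by limma at the same threshold, while 3 and 1 of them had an unadjusted p under 0.05. Of 8 meninges genes *Igf2* (0.89) and *Col1a2* (0.84) were called higher in cerebellum. The *Igf2* call was lost without any 1 of 10 arrays, which were all cerebellum arrays except Ts1Cje replicate 3, the 3 Ts1Cje cortex arrays, and hippocampus disomic and Ts1Cje replicates 1 (0.78 to 0.91). The choroid plexus, which lies against the hippocampus and in the fourth ventricle, was uneven between arrays. *Ttr*, encoding transthyretin and its most abundant transcript, read 5.92, 6.67 and 8.60 in cerebellum (lowest, median and highest), 4.56, 4.03, 2.62, 9.28 and 7.21 in cortex and 10.81, 8.03, 9.66, 9.77 and 8.86 in hippocampus. The mean of the 11 choroid plexus genes ran from 2.87 to 3.13 on cerebellum arrays, from 2.46 to 3.19 on cortex arrays and from 3.17 to 3.49 on hippocampus arrays. *Otx2* (1.44), which granule cells of the posterior cerebellum also use, and *Clic6* (0.66) were called higher and *Kl* (-0.85) and *Sostdc1* (-0.71) lower. The *Ttr* difference of -0.35 (SE 0.83, adjusted p = 0.795) was not called, and it was 0.07 without cortex Ts1Cje replicate 2. Of 15 brainstem genes 2 were called higher, of 11 thalamus and hypothalamus genes 1, of 14 dividing cell genes 4 with 1 lower, and of 8 striatum genes 2 with 4 lower, where 12.7% of all genes were called higher and 15.9% lower. The part of neighbouring tissue in the values above was not tested.

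Whether the regional difference depended on genotype was asked by setting the cerebellum minus forebrain difference of Ts1Cje mice against that of disomic mice. No probe set was called (0% of 45101), by limma at the same threshold, while 1481 (3.28%) had an unadjusted p under 0.05. The lowest adjusted p was 0.191, shared by *Clic6*, a chloride channel protein encoded in the triplicated segment, and *Tubgcp6*, a component of the gamma-tubulin complex, which were chosen after their values were seen. On the *Clic6* probe set concerned, which is not the one used above, the cerebellum read 5.67, 5.94 and 6.65 in Ts1Cje mice and 4.0, 4.38 and 4.21 in disomic mice, while forebrain means lay between 2.11 and 2.34, and the difference of differences was 1.84 (SE 0.25). *Tubgcp6* read 5.16, 5.31 and 5.19 in Ts1Cje cerebellum and 6.22, 6.38 and 6.5 in disomic cerebellum, and its difference of differences was -1.19 (SE 0.17). Without the Ts1Cje replicate 1 cerebellum array, 3 probe sets were called, 1 of *Clic6* and 2 of *Gbp6*, an interferon-induced guanylate-binding protein. The 19 genes of the triplicated segment taken as a check of the labels had a Ts1Cje mean above the disomic mean in each region (19 of 19), by medians of 0.754 in cerebellum, 0.808 in cortex and 0.622 in hippocampus. The study lists these 19 genes as raised in Ts1Cje mice on these same arrays, so that count was largely set by their choice. The differences of differences of the 19 genes ran from -0.34 to 0.49 around a median of 0.02, and none was called.

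The regional difference at P84 was then compared with that at P30, from 18 arrays of the younger age. The fit covered 67 arrays of all ages. It left out the dim disomic replicate 3 arrays of P84 cortex, P84 hippocampus and P1 cerebellum. The disomic replicate 3 arrays of P15 cerebellum and P15 hippocampus were left out as well. The change was small in extent, with 163 probe sets called (0.361%), 61 in which the cerebellum minus forebrain value rose (0.135%) and 102 in which it fell (0.226%). With 1 probe set per gene these were 94 genes, of which 66 were also called against both regions at P84. The gap was larger at P84 in 50 of the 94, smaller in 32 and of opposite sign in 12. All of the 12 highest and 12 lowest genes at P84 except *Mal2* had no called change.

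The largest rise was that of *Arc*, an activity-regulated gene of dendrites. Its P30 values (lowest, median and highest of 6) were 3.44, 3.83 and 4.48 in cerebellum, 6.19, 7.60 and 9.11 in cortex and 6.12, 7.13 and 7.33 in hippocampus. At P84 the cerebellum read 4.15, 4.51 and 4.62, the cortex 4.51, 5.50 and 6.68 and the hippocampus 5.23, 5.87 and 6.45. The forebrain values were lower at the older age and the gap shrank from -3.43 to -1.30, a change of 2.14 (SE 0.41, adjusted p = 0.00377). That call was lost with all 72 arrays (adjusted p = 0.0884) and with P30 and P84 arrays only (adjusted p = 0.0596). At P84 alone *Arc* was called lower (-1.30, SE 0.31, adjusted p = 0.00302), a call lost without any 1 cerebellum array, hippocampus disomic replicate 2 or hippocampus Ts1Cje replicate 2 (-1.35 to -1.22). *Mpp4*, a membrane guanylate kinase, and *Fam117a* rose instead through the cerebellum, with P30 ranges of 4.03 to 5.15 and 5.52 to 6.51 and P84 ranges of 5.57 to 7.0 and 7.23 to 7.67, which did not overlap. The changes were 1.47 (SE 0.15, adjusted p = 1.8e-08) and 1.47 (SE 0.19, adjusted p = 2.38e-06).

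The largest fall was that of *Mybpc3*, a myosin-binding protein. Cerebellum values were 6.96, 8.06 and 8.59 at P30 (lowest, median and highest) and 4.31, 5.03 and 5.47 at P84, and forebrain values stayed below the array medians at both ages. The gap shrank from 5.24 to 2.37, a change of -2.87 (SE 0.18, adjusted p = 1.38e-15), which was not called with all 72 arrays (adjusted p = 0.291). The immediate early genes *Nr4a2*, a nuclear receptor, and *Fos* were also lower in cerebellum at P84 than at P30. *Nr4a2* read 7.22, 8.57 and 10.01 there at P30 and 5.94, 6.10 and 7.41 at P84, with cortex near 9.73 to 9.98 and 9.51 to 10.13, and changed by -2.30 (SE 0.32, adjusted p = 2.29e-05). *Fos* read 5.38, 7.97 and 9.47 in cerebellum at P30, a wide spread, and 3.74, 4.48 and 5.61 at P84. In cortex it was lower at P84 too, with 6.62, 7.86 and 8.75 at P30 and 4.87, 6.12 and 6.93 at P84, and in hippocampus it read 4.66, 4.79 and 5.44 and 4.44, 4.59 and 4.85. The change was -2.14 (SE 0.51, adjusted p = 0.0336). Its call was lost without any 1 of 12 arrays, with values from -2.19 to -1.72. These were at P30 the Ts1Cje replicate 2 and disomic replicates 2 and 3 of cerebellum and replicate 1 of both genotypes in cortex, and at P84 the Ts1Cje replicates 1 and 3 and disomic replicates 1 and 3 of cerebellum, cortex disomic replicate 1 and Ts1Cje replicate 2, and hippocampus disomic replicate 2. At P84 *Fos* was not called between the regions (-0.79, SE 0.30, adjusted p = 0.0501), except without cerebellum Ts1Cje replicate 2 (-1.09).

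**Figure D5:**
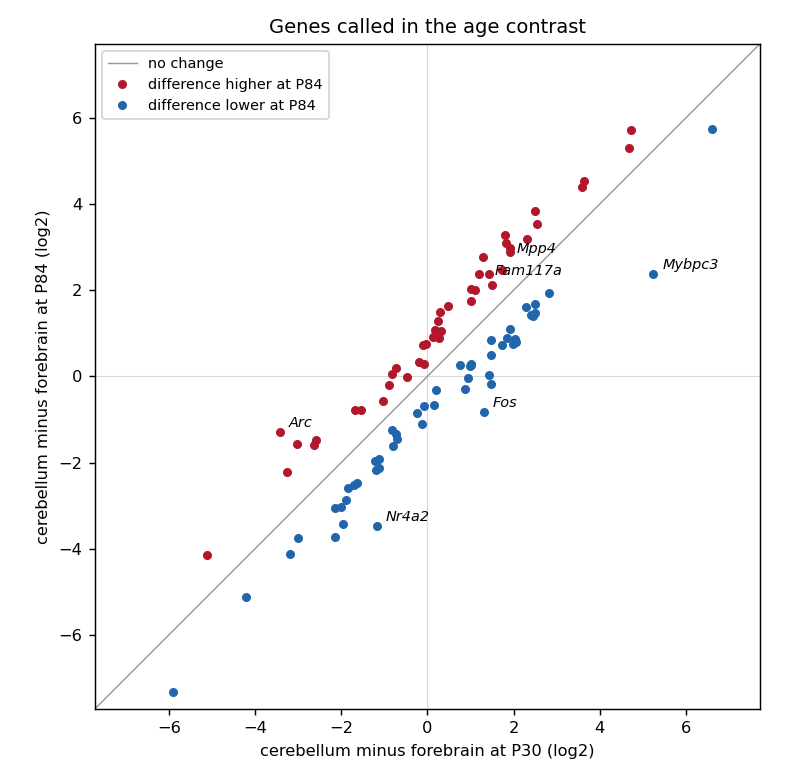
Cerebellum minus forebrain difference (log2) at P30 (horizontal) and P84 (vertical) for the 94 genes called in the age contrast; points on the diagonal would have no change. *Arc*, *Mpp4* and *Fam117a* lay above the diagonal with the largest rises and *Mybpc3*, *Nr4a2* and *Fos* below it with the largest falls.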

How the data were processed

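RNA from whole cerebellum, cerebral cortex and hippocampus was extracted with Qiagen RNeasy micro columns, amplified by two-cycle labelling and hybridised by the authors to Affymetrix Mouse Genome arrays. The deposited values are log2 expression values per probe set, which the authors made with gcRMA (GCRMA in the submitters' processing notes, without a version). gcRMA quantile-normalises all arrays together and models background from base composition, which pulls dim probe sets to a common floor, and no detection calls were used. Precision is limited by the number of arrays.

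An additive model of region and genotype was fitted to 45101 probe sets on 16 arrays with limma 3.58.1 in R 4.3.3 (12 residual and 15.29 total degrees of freedom), with Benjamini-Hochberg adjustment and the methods' thresholds, a moderated t of at least 4 in size and an adjusted p of at most 0.05. Genotype dependence was a contrast of 6 group means, and the age contrast used 67 arrays and 24 group means. Symbols came from the platform annotation: 34958 probe sets had 1 symbol, 932 several and 9211 none, and 34754 were matched by gene identifier to the GRCm38.p6 table. The genes named are the 12 largest differences in each direction among those called against both regions, members of 32 gene lists, and the largest age changes. The members and lists were chosen with earlier results of these data known. Of 457 distinct genes listed, 415 were measured. The labels do not say whether a replicate number marks a mouse, and p-values measure the spread between these arrays. Alternatives were no removal of the arrays left out, each genotype alone, a replicate block and other normalization. Filters, weights and thresholds were also varied, forebrain arrays were pooled, and each array was left out in turn. The scripts were tested on simulated data.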

Additional observations from a re-analysis of the deposited data

Results flagged for a closer look

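In groups of 5 or 6 arrays, 7 of 90 groups tested for the named genes held an array far from the others by Dixon's test, where chance gives about 1 in 20. *Cbln3* read 2.45 on cortex Ts1Cje replicate 3, against 2.14 to 2.22 on the other cortex arrays. *Cbln1* read 4.31 on cortex Ts1Cje replicate 2, against 3.72 to 3.81. *Enc1* read 12.7 on hippocampus disomic replicate 2, against 12.38 to 12.47. *Crym* read 8.13 and *Ptk2b* 8.4 on cortex Ts1Cje replicate 3, against 8.59 to 8.77 and 9.1 to 9.29. *Mal2* read 9.65 on hippocampus disomic replicate 2, against 10.4 to 10.51. *Mpp4* read 3.26 on cortex Ts1Cje replicate 1, against 2.9 to 2.96.

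The cerebellum minus forebrain difference changed between P30 and P84 for 163 probe sets by the contrast of the 2 ages. The named changes were 2.14 for *Arc*, 1.47 for *Mpp4*, 1.47 for *Fam117a*, -2.87 for *Mybpc3*, -2.3 for *Nr4a2* and -2.14 for *Fos*.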

How the results depend on the processing

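Without each array in turn, 9723 to 10975 probe sets were called against the forebrain mean, 8254 to 9848 against cortex, 8064 to 9207 against hippocampus and 6275 to 6836 against both, and the age contrast called 115 to 238. The genotype contrast called 0 to 3, the 3 without cerebellum Ts1Cje replicate 1, and 2 with all ages in the fit (*Gbp6* and *Zfp934*). With disomic mice only, 5777 were called against cortex, 5963 against hippocampus and 4007 against both, from fewer arrays. Among probe sets with a highest region mean of at least 5, 6522, 5803 and 5778 were called against the forebrain mean, cortex and hippocampus. With an adjusted p alone these counts were 15739, 13923 and 13580, with 10139 against both, and with a test against a log2 difference of 1 they were 2499, 2418 and 2367, with 1771 against both. The age contrast called 40 with all 72 arrays and 298 with array weights; the cause was not tested.

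Same-numbered arrays correlated above 0.1 in their deviations from group means in 13 of 18 pairs (-0.142 to 0.56). Of 36 pairings of an array with another region, each with 3 candidates, 25 had the highest correlation at the array's own number. These pairings are not independent, since each pair was counted from both sides, and they include the dim P84 arrays. Because the labels do not tie a number to a mouse, the main fit did not assume pairing, and blocks were run as alternatives. With the replicate number as a fixed block, 10680 probe sets were called against the forebrain mean and 6994 against both. With a random block, whose consensus correlation was 0.0618, these were 10694 and 6897. The fixed block called *Slc17a7* lower (adjusted p = 0.00611) and lost the calls of *Mbp* (adjusted p = 0.0113) and *Igf2* (adjusted p = 0.0155).

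*Ttr* turned to 0.456 with disomic mice only and, over the arrays left out in turn, lay between -0.719 and 0.069, the last without cortex Ts1Cje replicate 2, and *Trem2* to -0.138 with the median of its probe sets. With the forebrain arrays pooled as 1 group 9264 probe sets were called, and *Dsp*, *C1ql2* and *Cbln2*, which differ between cortex and hippocampus, were among the calls lost. Signal near the background limits every group mean below its array median.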
